A study of Mus musculus with 6 samples.

Results

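The genes described here are the tumour necrosis factor (TNF) superfamily of ligands and receptors and the machinery that carries their signals to the transcription factor NF-kB, measured in whole mouse kidney. Members were taken by gene symbol from the deposited table, namely all symbols of the Tnfsf, Tnfrsf, Tnfaip, Traf, Birc, Ripk, Nfkb and Ikbk series together with Ltbr, Ltb, the Rel genes, Chuk, Map3k7, Map3k14, Tradd, Fadd, Cyld, Nkiras1 and Nkiras2. This gave 66 of the 13026 genes in the table. The RNA came from 3 LIGHT-/- (LIGHT knockout) and 3 LIGHT+/+ (wild type) kidneys of adult male mice on a C57BL/6 J background, and both genotypes had been through 32 min of ischemia of both kidneys and 24 h of reperfusion. How the LIGHT allele was made, whether the controls were littermates and whether any RNA was pooled are not given in the sources used here, and no unoperated kidney was analysed here. LIGHT is the protein of Tnfsf14, which was not analysed here, as were Tnf and Lta, and the labelled genotype therefore has no check on that gene here.

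Ligands of the TNF superfamily are mostly trimers on the cell surface, and their receptors recruit TRAF adaptors, ubiquitin ligases and RIP kinases. In the canonical route the IKK complex marks inhibitor proteins such as IkBα for destruction, which frees NF-kB dimers to enter the nucleus. In the non-canonical route the kinase NIK, encoded by Map3k14, is freed from TRAF3 and the inhibitor-of-apoptosis proteins, and the precursor encoded by Nfkb2 is processed to pair with RelB. LIGHT binds the lymphotoxin beta receptor (Ltbr), which feeds both routes, and the herpesvirus entry mediator (Tnfrsf14).

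Values are FPKM, which are scaled for transcript length and library total, so levels of different genes can be set side by side. A gene was tested where its mean over the 6 libraries was at least 0.5 FPKM. This kept 64 of the 66 members and 12836 genes in all, and left Tnfsf13b and Tnfrsf19 with values only. Differences are LIGHT knockout minus wild type on the scale log2(FPKM + 1), which understates the change of low genes. They come from limma, with p-values adjusted over all 12836 genes and a threshold of 0.05. Nothing says that the 3 libraries of a genotype came from separate mice, and p-values therefore reflect only the spread among these libraries, which may be technical. An exact permutation test of 3 against 3 cannot go below p = 0.1.

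Knockout library 3 stood apart. Across genes its Pearson correlation with each of the others reached at most 0.956, while no pair of the remaining 5 was below 0.976. The summed level of 10 injured-tubule markers was 1710 FPKM in this library, against 4770 and 5884 in the other knockout libraries and 5765 to 6323 in wild type. The neutrophil markers, 9 of 11 in the table, summed to 51.4 FPKM there, against 208 and 238 in the other knockout libraries and 189 to 304 in wild type. Most of this sum was Lcn2, at 30.4 FPKM there, 161 and 170 in the other knockout libraries and 124 to 225 in wild type. Lcn2 is also among the injured-tubule markers, so the sums are not independent. S100a9, next in level, stood at 23.8, 34.6 and 12.9 FPKM in the knockout libraries and 35.3 to 47.7 in wild type. Other markers were high in knockout library 3. Adipocyte markers, 5 of 6 in the table, summed to 67.0 FPKM, against 12.8 and 18.9 in the other knockout libraries and 13.8 to 21.3 in wild type. Of these, Adipoq, Plin1 and Ucp1, at 13.1, 3.51 and 4.65 FPKM there, were in the table only through knockout library 3. Their high values there were thus fixed by the lower limit of the table, given below. Fabp4, which did not depend on that library, stood at 35.8 FPKM there, 12.1 and 18.6 in the other knockout libraries and 12.8 to 20.8 in wild type. The 9 markers of loop, distal tubule and collecting duct summed to 1317 FPKM, against 532 and 694 in the other knockout libraries and 638 to 983 in wild type. All 9 proximal tubule markers were in the table, at 4605 to 5740 FPKM in knockout and 4328 to 4899 in wild type, as the tissue label says. Most of this sum was Kap, with means of 3868.5 FPKM in knockout and 4013.2 in wild type. Kap was the 1 marker of this list with a negative log2 difference, and the other 8 had a positive one, so the sum hides their differences. In whole tissue, fewer cells of a type and less RNA per cell cannot be told apart. Many of the results that rest on knockout library 3 are given with and without it.

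Receptors held the highest levels in the set. Tnfrsf12a, which encodes Fn14, the receptor of the cytokine TWEAK, averaged 201 FPKM over the 6 libraries. Tnfrsf21, which encodes death receptor 6, Tnfrsf1a, which encodes TNF receptor 1, and Ltbr followed at 57.6, 52.1 and 50.9 FPKM. Within the set, 15 members averaged at least 10 FPKM, 39 lay between 1 and 10 FPKM and 12 lay under 1 FPKM. Among the low members were the ligands Ltb and Tnfsf13b and the receptors Tnfrsf14, Tnfrsf25, Tnfrsf26 and Tnfrsf19. The lower limit of the table was close to 0.5 FPKM, since in every row the higher of the genotype means was at least 0.5004 FPKM.

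**Figure D1:**
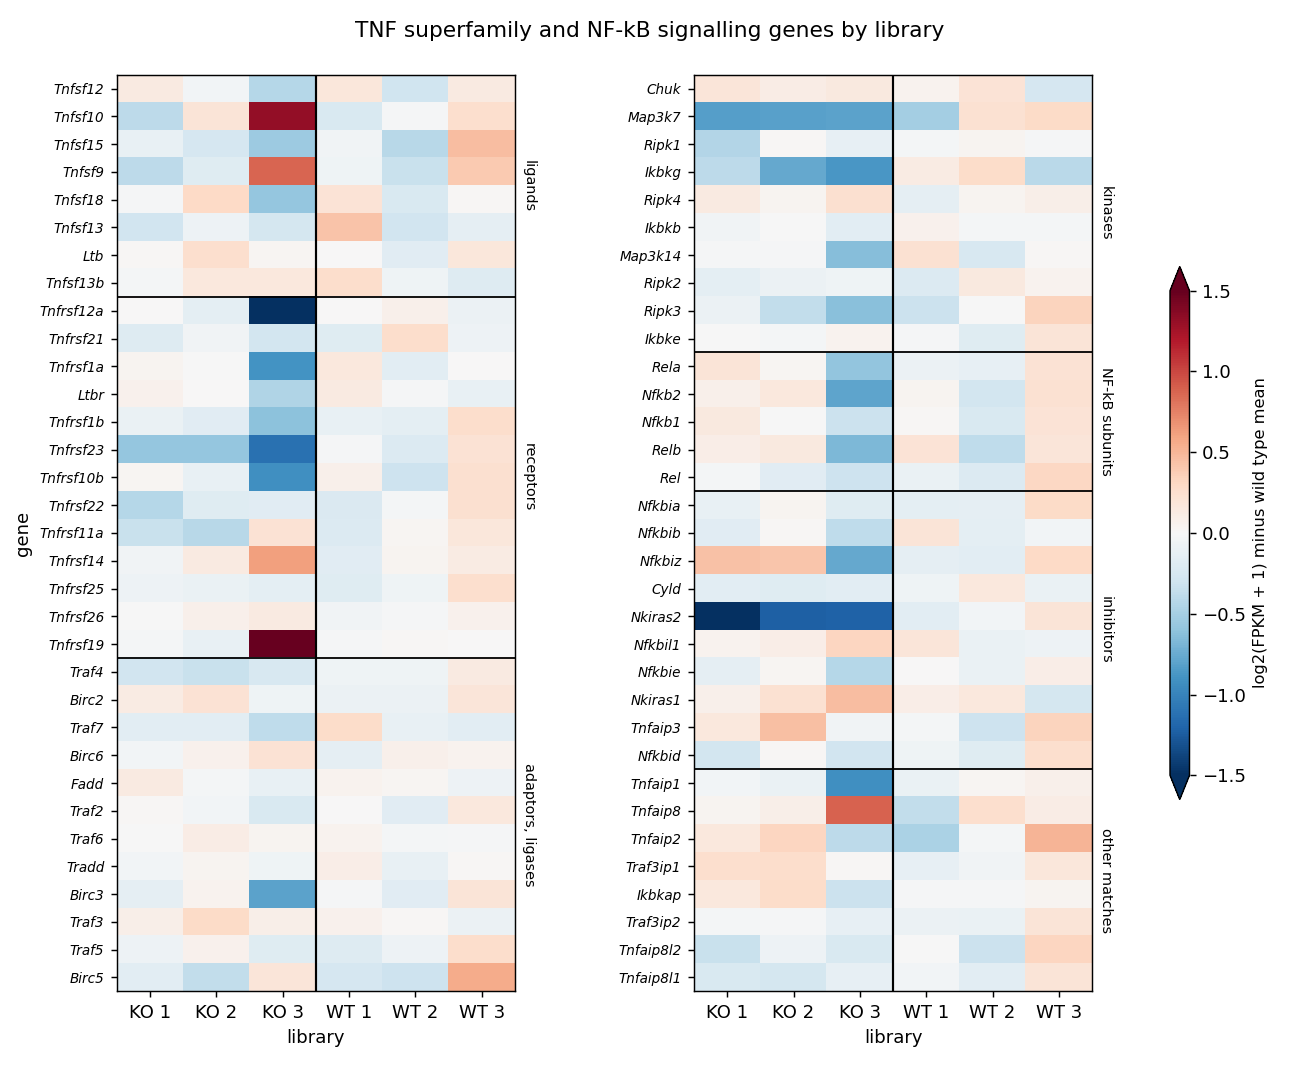
Level of each of the 66 members in each library as log2(FPKM + 1) minus the wild type mean, with genes grouped by role and ordered by level within a role; KO is LIGHT knockout and WT is wild type. Nkiras2 is low in all 3 knockout libraries, and many of the other low values lie in knockout library 3.

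NF-kB controls the genes of several of its own subunits and inhibitors, and their promoters are the regulatory sequences that set this feedback. Promoter windows of 300 bases, from 250 bases before to 50 bases after a gene start, were found in RefSeq (GRCm38.p6) for 50 members. Both strands were searched for the 10-base NF-kB (kB) consensus. A match was found for 12 of the 50 members, or 24.0%, and for 5.14% of all 27025 genes with a window. Among the 9778 genes with a window that were tested here, the share was 6.31%. The genes with a match were Nfkbia, Nfkbid, Nfkbie, Tnfaip3, Cyld, Nfkb2, Rel, Ltb, Traf3, Map3k7, Birc5 and Tnfaip8l1. No window was found for Nfkb1, Relb or Nkiras1. A match is a run of letters and does not show that the factor binds there.

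The windows of Nfkbia, Nfkb2, Rel and Tnfaip3 are shown because these genes form the feedback of the pathway, and those of Map3k7 and Nkiras2 because the members' differences between genotypes were large there. Capitals mark matches to the kB consensus on either strand. In Nfkb2 and in Rel the first run of capitals holds overlapping matches on both strands.
Nfkbia: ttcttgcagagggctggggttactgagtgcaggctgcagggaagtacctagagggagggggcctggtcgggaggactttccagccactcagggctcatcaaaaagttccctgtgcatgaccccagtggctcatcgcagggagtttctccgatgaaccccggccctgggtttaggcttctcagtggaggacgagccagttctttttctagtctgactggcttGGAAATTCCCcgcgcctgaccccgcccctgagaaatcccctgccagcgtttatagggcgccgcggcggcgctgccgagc
Nfkb2: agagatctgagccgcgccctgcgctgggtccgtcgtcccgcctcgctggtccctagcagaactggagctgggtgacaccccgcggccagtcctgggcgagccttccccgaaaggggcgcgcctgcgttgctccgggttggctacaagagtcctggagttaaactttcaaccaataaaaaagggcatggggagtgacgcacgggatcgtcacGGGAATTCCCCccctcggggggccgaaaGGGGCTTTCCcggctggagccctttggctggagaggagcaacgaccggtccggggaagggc
Rel: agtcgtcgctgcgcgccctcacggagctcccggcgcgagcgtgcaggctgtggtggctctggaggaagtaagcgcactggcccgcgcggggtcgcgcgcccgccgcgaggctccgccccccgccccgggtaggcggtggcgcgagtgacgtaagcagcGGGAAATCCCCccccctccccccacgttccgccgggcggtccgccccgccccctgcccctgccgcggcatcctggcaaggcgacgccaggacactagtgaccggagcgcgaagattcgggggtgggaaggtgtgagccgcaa
Tnfaip3: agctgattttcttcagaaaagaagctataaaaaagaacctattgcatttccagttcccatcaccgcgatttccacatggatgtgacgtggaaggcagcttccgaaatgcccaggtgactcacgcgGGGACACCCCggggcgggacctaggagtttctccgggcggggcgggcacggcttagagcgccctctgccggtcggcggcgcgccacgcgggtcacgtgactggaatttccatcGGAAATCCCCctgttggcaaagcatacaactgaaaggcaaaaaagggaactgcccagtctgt
Map3k7: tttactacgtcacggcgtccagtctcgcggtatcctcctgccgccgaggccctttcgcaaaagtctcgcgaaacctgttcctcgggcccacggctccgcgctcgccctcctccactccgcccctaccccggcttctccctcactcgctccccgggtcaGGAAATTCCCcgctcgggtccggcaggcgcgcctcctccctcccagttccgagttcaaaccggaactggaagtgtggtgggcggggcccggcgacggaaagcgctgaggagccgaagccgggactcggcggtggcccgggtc
Nkiras2: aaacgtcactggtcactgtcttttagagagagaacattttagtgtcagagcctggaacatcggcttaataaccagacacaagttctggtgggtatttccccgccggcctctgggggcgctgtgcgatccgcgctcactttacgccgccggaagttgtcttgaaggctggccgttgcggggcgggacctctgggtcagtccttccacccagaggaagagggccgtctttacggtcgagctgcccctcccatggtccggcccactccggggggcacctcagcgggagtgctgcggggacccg
The positions are chr12:55492598-55492897 on the minus strand for Nfkbia, chr19:46304487-46304786 on the plus strand for Nfkb2, chr11:23770920-23771219 on the minus strand for Rel and chr10:19015361-19015660 on the minus strand for Tnfaip3. The window of Map3k7 is chr4:31963857-31964156 and that of Nkiras2 is chr11:100622705-100623004, both on the plus strand. Nfkb2 and Tnfaip3 have further start sites that are not shown. The match of Nfkbia begins 29 bases before the gene start and that of Map3k7 begins 92 bases before it, both on the strand opposite to the gene. The letters of the consensus do not occur in the Nkiras2 window. That window lies inside the gene as annotated in GENCODE M21, where Nkiras2 starts at 100619244. The bases around that start were not searched.

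**Figure D2:**
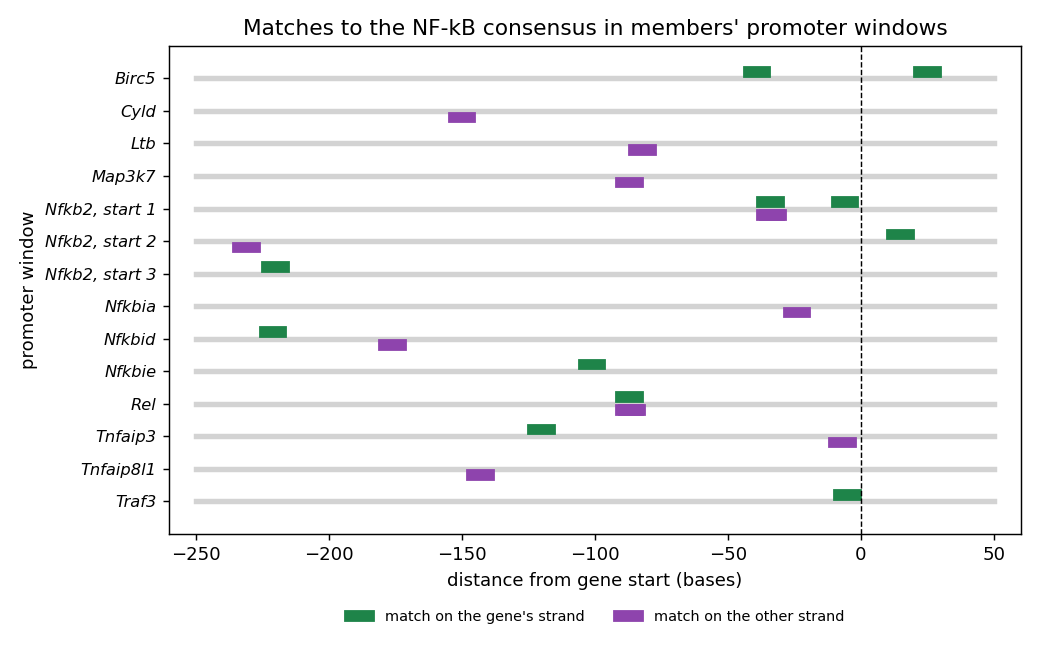
Place of each match to the NF-kB consensus in the 14 promoter windows with a match, against the distance from the gene start in bases; bars above a line are on the gene's strand and bars below it on the other strand. Windows 2 and 3 of Nfkb2 overlap and share 1 match, and matches lie from 236 bases before to 29 bases after a start.

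Nkiras2 had the largest difference among the members tested and was called, though the call did not hold under all settings, as given below. It encodes a small Ras-like protein, κB-Ras2, that binds IkB proteins and slows their degradation. Its level was 1.91, 2.69 and 2.74 FPKM in the knockout libraries, against 6.77, 7.43 and 8.90 FPKM in the wild type libraries. The genotypes did not overlap, and the knockout mean of 2.45 ± 0.467 FPKM was 31.8% of the wild type mean of 7.70 ± 1.09 FPKM (SD, n = 3 each). The log2 difference was -1.34 ± 0.15 (SE), with a 95% interval from -1.69 to -0.99 and a limma adjusted p of 0.0472. Nkiras2 was the single member called, 1 of 64 tested or 1.56%, where 0.117% of all genes were called, 0.0935% lower and 0.0234% higher. No member was called higher, and none had an unadjusted p under 0.05 in that direction, where 4.34% of all genes did.

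The size of the Nkiras2 difference moved little under other settings and its call did not hold in all of them. The log2 difference lay between -1.62 and -1.22 over 17 alternatives, and the gene was called in 9 of them. It was not called without any 1 of the 6 libraries, where the limma adjusted p lay between 0.0882 and 0.289, with the highest value without wild type library 2. Without knockout library 3 the difference was -1.40 (limma adjusted p = 0.0922), and no member was called, where 0.0857% of all genes were. Some cell markers also did not overlap between genotypes. Of the 9 proximal tubule markers, 7 or 77.8% were higher in the knockout without overlap, beside 7.76% of all genes. Of the 10 injured-tubule markers, 2 or 20.0% were lower without overlap, beside 8.8% of all genes. So were 2 of the 9 neutrophil markers tested, Clec4d and S100a9, and 2 of 5 podocyte markers. The same held for 2 of 12 markers of monocytes and macrophages and 1 of 7 of fibroblasts and pericytes. These counts are small and carry no test. Havcr1, which encodes the injury marker KIM-1, stood at 596, 415 and 143 FPKM in the knockout libraries, against 895, 770 and 833 FPKM in the wild type libraries, with a log2 difference of -1.34 (limma adjusted p = 0.592) and of -0.74 without knockout library 3. Anxa3, another injured-tubule marker, had a log2 difference of -1.14 and of -0.61 without that library. The part of these cells in the Nkiras2 result was not tested. It was also not called after rescaling every library to the same sum, where the limma adjusted p was 0.0736.

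Nkiras2 lies at 100619244 to 100627607 on chromosome 11 (GENCODE M21, GRCm38, the assembly of mm10), on the plus strand. It shares no 31-base word with annotated transcripts of another gene read in the same direction. Words on opposite strands were not compared, so this search does not cover antisense overlap. The exons of Nkiras2 share 287 bases with Dnajc7, a co-chaperone gene on the opposite strand. The sources used here do not say whether the authors' counting used strand. Dnajc7 averaged 17.2 ± 1.82 FPKM in knockout and 18.3 ± 1.56 FPKM in wild type (SD, n = 3 each), with a log2 difference of -0.08 (limma adjusted p = 0.812).

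Nkiras1, the paralogue, encodes κB-Ras1 and lies on chromosome 14. Its level was 2.44, 2.81 and 3.52 FPKM in the knockout libraries, against 2.51, 2.66 and 1.72 FPKM in the wild type libraries. The genotypes overlapped, and the log2 difference was 0.26, with a 95% interval from -0.13 to 0.64 (limma adjusted p = 0.648). Summed over both κB-Ras genes the level was 5.37 ± 0.962 FPKM in knockout and 9.99 ± 0.672 FPKM in wild type (SD, n = 3 each). Nkiras1 shares exonic bases with Ube2e1 and Rpl15 on the opposite strand.

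**Figure D3:**
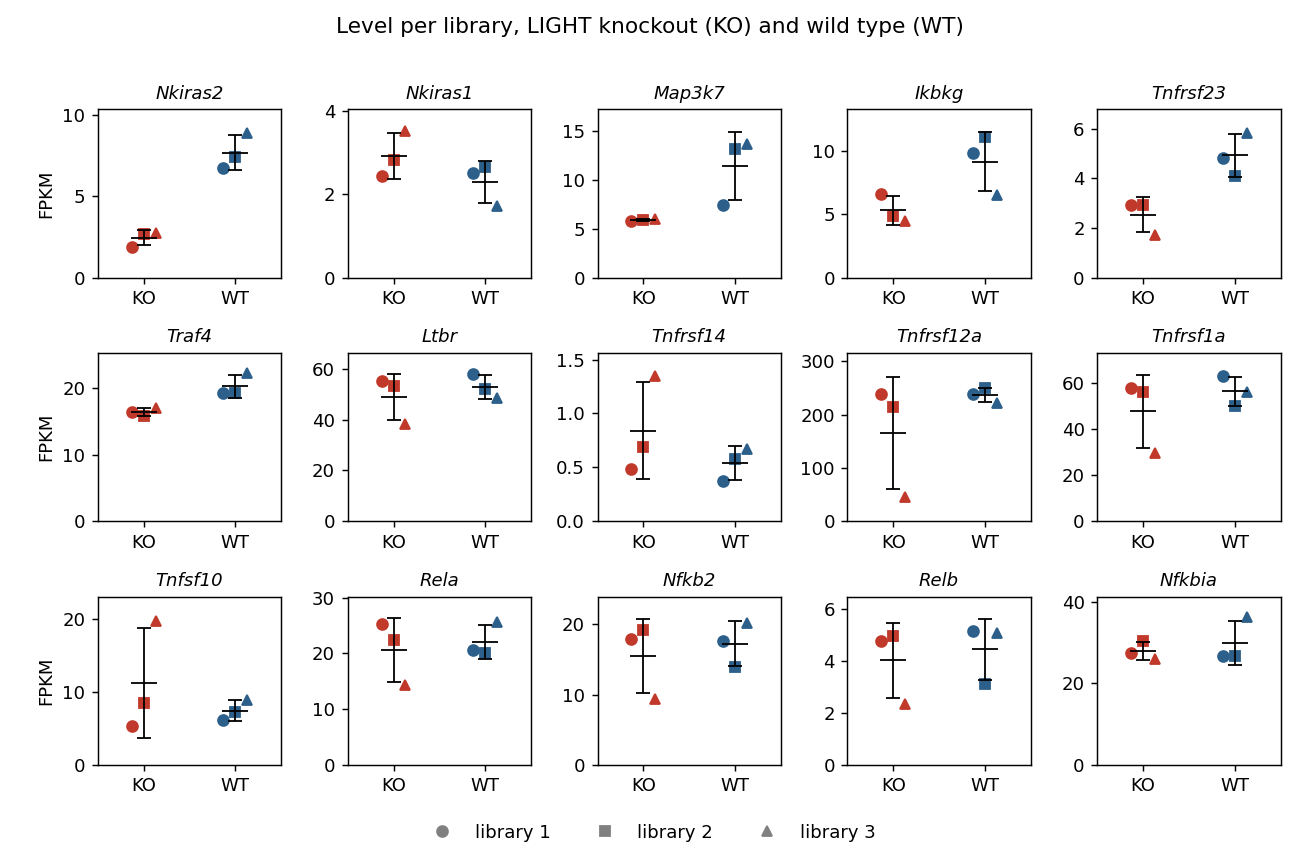
FPKM of 15 members in each library, LIGHT knockout (KO) left and wild type (WT) right, with the mean as a bar and the SD as whiskers (n = 3 each) and marker shape for the library number. Nkiras2, Map3k7, Tnfrsf23 and Traf4 do not overlap between genotypes, and Map3k7 lies close together in the knockout libraries and apart in wild type. Knockout library 3 is lowest for Tnfrsf12a, Tnfrsf1a, Rela, Nfkb2 and Relb.

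Besides Nkiras2, 4 members had an unadjusted p under 0.05, namely Map3k7, Tnfrsf23, Ikbkg and Traf4. All were lower in the knockout and none passed, each with a limma adjusted p of 0.592. The 5 members make 7.81% of the 64 tested, beside 8.08% of all genes with an unadjusted p under 0.05 in either direction, so the share is near the background, and beside 3.74% of all genes that were lower. Without knockout library 3, 7 members or 10.9% had such a p, beside 7.16% of all genes. They were the same 5 members with Nfkbiz and the receptor Tnfrsf11a.

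Map3k7 encodes TAK1, the kinase that activates the IKK complex and the MAP kinase branch below TNF, interleukin 1 and Toll-like receptors. Its level was 5.84, 5.92 and 5.96 FPKM in the knockout libraries, against 7.48, 13.2 and 13.8 FPKM in the wild type libraries. The knockout libraries lay close together, while wild type library 1 was close to them and the other wild type libraries were higher. The log2 difference was -0.81 ± 0.21 (SE), with a 95% interval from -1.32 to -0.30, and it was -0.82 without knockout library 3.

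Ikbkg encodes NEMO, the scaffold of the IKK complex. It stood at 6.64, 4.87 and 4.45 FPKM in the knockout libraries, against 9.85, 11.1 and 6.58 FPKM in the wild type libraries. The genotypes overlapped by a small margin. The log2 difference was -0.68 ± 0.21 (SE), with a 95% interval from -1.18 to -0.17. Ikbkg shares 418 exonic bases with G6pdx, which encodes glucose-6-phosphate dehydrogenase on the opposite strand, so without known strand use the reads of that stretch cannot be told apart. G6pdx was also lower, at 22.2 ± 4.70 FPKM in knockout and 31.2 ± 2.62 FPKM in wild type (SD, n = 3 each), with a log2 difference of -0.49 (limma adjusted p = 0.592).

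Tnfrsf23 encodes a mouse decoy receptor that binds the death ligand TRAIL without a death domain. It stood at 2.94, 2.94 and 1.71 FPKM in the knockout libraries, against 4.84, 4.10 and 5.86 FPKM in the wild type libraries, with no overlap. The log2 difference was -0.76 ± 0.19 (SE), with a 95% interval from -1.21 to -0.31, and -0.58 without knockout library 3. Tnfrsf23 holds 26.7% of 31-base words that also occur elsewhere, mainly in its neighbour Tnfrsf22, another decoy receptor of TRAIL, so the division of reads between them is uncertain. Tnfrsf22 stood at 1.62, 2.11 and 2.14 FPKM in the knockout libraries, against 2.04, 2.46 and 3.16 FPKM in the wild type libraries. Summed over both receptors the level was 4.56, 5.05 and 3.85 FPKM in the knockout libraries, against 6.88, 6.56 and 9.01 FPKM in the wild type libraries. The sums did not overlap between genotypes.

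Traf4, an adaptor of epithelial cells, stood at 16.37, 15.82 and 16.997 FPKM in the knockout libraries, against 19.2, 19.2 and 22.2 FPKM in the wild type libraries. Its difference was small and the genotypes did not overlap, with a log2 difference of -0.28 ± 0.09 (SE) and a 95% interval from -0.51 to -0.06. In all, 6 of the 64 members, or 9.38%, did not overlap between genotypes, beside 16.6% of all genes. By direction, 5 were lower and 1 higher, beside 8.8% and 7.76% of all genes. The others were Cyld, a deubiquitinase that restrains NF-kB, at 5.20 to 5.30 FPKM in knockout and 5.55 to 6.87 FPKM in wild type, and Traf3, at 3.89 to 4.62 FPKM in knockout and 3.36 to 3.82 FPKM in wild type. Neither passed (limma adjusted p = 0.640 for Cyld and 0.663 for Traf3).

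**Figure D4:**
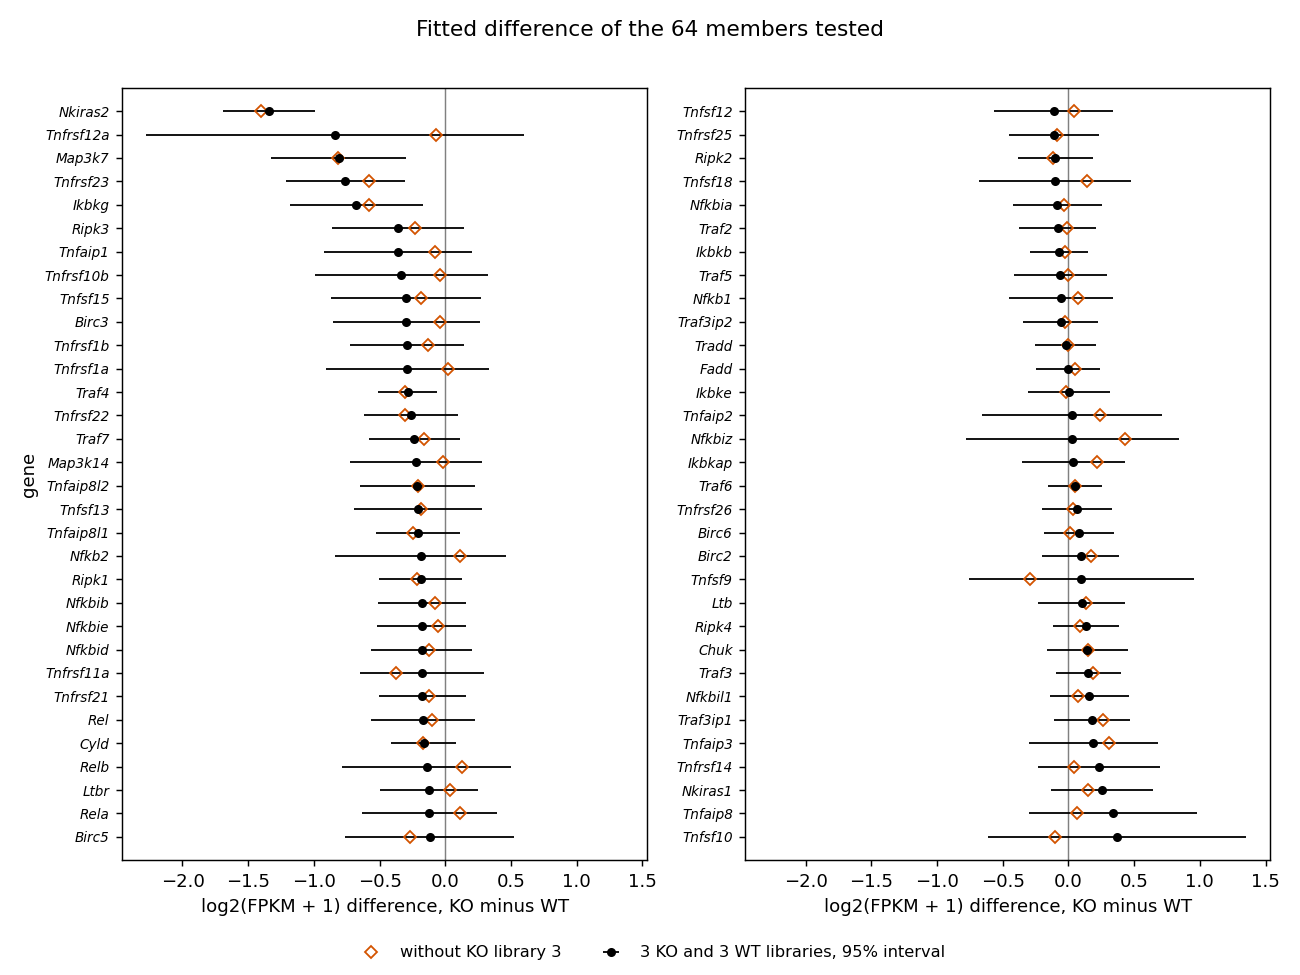
Fitted log2(FPKM + 1) difference, LIGHT knockout (KO) minus wild type (WT), for the 64 members tested in order of size, with the 95% interval, and as open diamonds the value without knockout library 3. Nkiras2 at -1.34 has the largest difference, and the interval of Tnfrsf12a runs from -2.28 to 0.60 with a value of -0.07 once knockout library 3 is left out.

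Among the ligands, none of the 7 tested had an unadjusted p under 0.05, and 4 were lower and 3 higher in the knockout. Tnfsf12, which encodes TWEAK, was the most abundant. It stood at 18.7, 16.5 and 12.4 FPKM in the knockout libraries, against 19.2, 13.6 and 18.7 FPKM in the wild type libraries. Tnfsf12 and its neighbour Tnfsf13, which encodes APRIL, have 47.4% and 58.4% of 31-base words in common with other transcripts, mainly of the read-through gene Tnfsfm13, so these values are uncertain.

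Tnfsf10, which encodes TRAIL, a death ligand, was high in a single library. It stood at 5.34, 8.48 and 19.8 FPKM in the knockout libraries, against 6.08, 7.23 and 8.91 FPKM in the wild type libraries. The log2 difference was 0.37 with all libraries, with a 95% interval from -0.61 to 1.35, and -0.10 without knockout library 3 (limma adjusted p = 0.773 and 0.950). Tnfsf9, the ligand of the T cell receptor 4-1BB, was likewise highest in knockout library 3, at 2.81 FPKM against 0.579 to 1.73 FPKM in the other 5. The sums of the adipocyte markers and of the loop, distal tubule and collecting duct markers were also highest in that library. For Adipoq, Plin1 and Ucp1 this was fixed by the lower limit of the table. The part of these cells in the Tnfsf10 and Tnfsf9 levels was not tested. Tnfsf15, which encodes the ligand TL1A, stood at 1.98, 1.69 and 1.21 FPKM in the knockout libraries, against 2.10, 1.41 and 3.43 FPKM in the wild type libraries.

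The receptors of LIGHT did not pass the test. Ltbr stood at 55.4, 53.2 and 38.4 FPKM in the knockout libraries, against 58.0, 52.1 and 48.6 FPKM in the wild type libraries. The genotypes overlapped, and the 95% interval of the log2 difference ran from -0.50 to 0.25, with a value of -0.12 with all libraries and 0.04 without knockout library 3. Tnfrsf14 stood at 0.480, 0.691 and 1.34 FPKM in the knockout libraries, against 0.368, 0.581 and 0.673 FPKM in the wild type libraries. Knockout library 3 held the highest value. The log2 difference was 0.23 with all libraries, with a 95% interval from -0.23 to 0.70, and 0.04 without knockout library 3.

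Tnfrsf12a differed between the knockout libraries more than between genotypes. It stood at 238, 213 and 44.7 FPKM in the knockout libraries, against 238, 249 and 222 FPKM in the wild type libraries. Knockout library 3 was at 19.3% of the mean of the other 5, and this library was also lowest in the injured-tubule and neutrophil markers, whose part in the result was not tested. The log2 difference of -0.84 (limma adjusted p = 0.677) became -0.07 without it (limma adjusted p = 0.914).

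Tnfrsf1a stood at 57.7, 56.1 and 29.6 FPKM in the knockout libraries, against 62.9, 50.01 and 56.2 FPKM in the wild type libraries, again with the low value in knockout library 3. Tnfrsf1b, which encodes TNF receptor 2, and Tnfrsf10b, the death receptor of TRAIL, were also lowest there, at 3.00 and 1.47 FPKM. Tnfrsf21 stood at 53.1, 58.4 and 50.1 FPKM in the knockout libraries, against 53.4, 73.2 and 57.4 FPKM in the wild type libraries. The genotypes overlapped for all 4 receptors. Tnfrsf19, a receptor that was not tested, was at 2.56 FPKM in knockout library 3 and between 0.0142 and 0.113 FPKM in the other 5. It was in the table only through that library, so this contrast was fixed by the lower limit of the table. The median log2 difference over the 12 receptors tested was -0.22, with 10 lower, and 8 were lower without knockout library 3, with a median of -0.08.

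Of the 12 adaptors and ubiquitin ligases tested, 8 were lower and 4 higher, with a median of -0.04, and none passed. Without knockout library 3, 6 were lower and the median was -0.00. Fadd, the adaptor of death receptors, averaged 5.82 ± 0.614 FPKM in knockout and 5.83 ± 0.307 FPKM in wild type, and Tradd, the adaptor of TNF receptor 1, averaged 5.32 ± 0.246 FPKM in knockout and 5.42 ± 0.483 FPKM in wild type (SD, n = 3 each). Their 95% intervals of the log2 difference ran from -0.25 to 0.24 and from -0.25 to 0.21. Both adaptors thus had nearly equal means in the genotypes. Birc2, which encodes the ubiquitin ligase cIAP1, averaged 11.4 ± 1.23 FPKM in knockout and 10.6 ± 1.34 FPKM in wild type. Birc3, which encodes cIAP2 and is itself a target of NF-kB, stood at 4.67, 5.47 and 2.56 FPKM in the knockout libraries, against 5.14, 4.53 and 6.13 FPKM in the wild type libraries. Its lowest value was in knockout library 3, and the genotypes overlapped.

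Of the 10 kinases, 7 were lower and 3 higher, with a median of -0.14, and 8 were lower without knockout library 3, with a median of -0.07. Chuk, which encodes IKKα, the catalytic subunit that acts in the non-canonical route, was the most abundant at 42.8 ± 1.17 FPKM in knockout and 39.0 ± 6.22 FPKM in wild type (SD, n = 3 each). Ikbkb, which encodes IKKβ of the canonical route, averaged 4.13 ± 0.288 FPKM in knockout and 4.39 ± 0.193 FPKM in wild type. Map3k14 stood at 3.76, 3.78 and 2.10 FPKM in the knockout libraries, against 4.66, 3.07 and 3.89 FPKM in the wild type libraries, with the low value again in knockout library 3. The 3 kinases overlapped between genotypes. Ripk1, the kinase at the branch between survival and death below TNF receptor 1, averaged 7.55 ± 1.35 FPKM in knockout and 8.64 ± 0.258 FPKM in wild type. Its partner in necroptosis, Ripk3, averaged 1.95 ± 0.553 FPKM in knockout and 2.81 ± 0.871 FPKM in wild type (limma adjusted p = 0.675 for Ripk1 and 0.627 for Ripk3). Ripk1 shares 241 exonic bases with Serpinb6a on the opposite strand and 511 with the pseudogene Gm17084 on the same strand, so its level is uncertain. Serpinb6a was also lower in the knockout, with a log2 difference of -0.72 (limma adjusted p = 0.592).

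The NF-kB subunits moved with 1 library. All 5 were lowest in knockout library 3, and all 5 had a negative difference with all libraries, with a median of -0.14. Without that library the median was 0.11 and 1 of 5, Rel, had a negative difference. None passed (smallest limma adjusted p = 0.744). Rela, the main activating subunit of the canonical route, stood at 25.3, 22.4 and 14.2 FPKM in the knockout libraries, against 20.6, 20.0 and 25.5 FPKM in the wild type libraries. Nfkb2 stood at 18.0, 19.1 and 9.43 FPKM in the knockout libraries, against 17.6, 13.9 and 20.2 FPKM in the wild type libraries. Its partner Relb stood at 4.77, 4.95 and 2.36 FPKM in the knockout libraries, against 5.17, 3.11 and 5.09 FPKM in the wild type libraries. In all 3, knockout libraries 1 and 2 lay within the wild type range and library 3 lay below it. Nfkb1, which encodes p105 and p50, averaged 4.65 ± 0.917 FPKM in knockout and 4.87 ± 0.861 FPKM in wild type (SD, n = 3 each).

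Among the other inhibitors, none passed. Nfkbia, which encodes IkBα, was the most abundant at 27.3, 30.3 and 25.9 FPKM in the knockout libraries, against 26.6, 26.8 and 36.2 FPKM in the wild type libraries. Its 95% interval of the log2 difference ran from -0.42 to 0.25. Tnfaip3, which encodes the ubiquitin-editing enzyme A20, stood at 1.65, 2.25 and 1.28 FPKM in the knockout libraries, against 1.33, 0.917 and 1.98 FPKM in the wild type libraries. Both genes overlapped between the genotypes. Nfkbiz, which encodes a nuclear IkB protein, stood at 10.9, 10.7 and 4.13 FPKM in the knockout libraries, against 6.94, 6.84 and 9.75 FPKM in the wild type libraries. Its log2 difference was 0.03 with all libraries and 0.43 without knockout library 3, where the limma adjusted p was 0.691. Nfkbib, which encodes IkBβ, averaged 12.6 ± 1.86 FPKM in knockout and 14.4 ± 1.86 FPKM in wild type (SD, n = 3 each).

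The remaining 8 members are taken by name and have other roles. Tnfaip1, an adaptor of a ubiquitin ligase, stood at 39.9, 38.3 and 21.3 FPKM in the knockout libraries, against 38.3, 42.1 and 43.5 FPKM in the wild type libraries. Tnfaip8, an inhibitor of cell death, stood at 11.4, 11.9 and 21.3 FPKM in the knockout libraries, against 8.37, 13.5 and 12.1 FPKM in the wild type libraries, so knockout library 3 was high for it and low for Tnfaip1. Tnfaip2 ranged from 8.06 to 13.8 FPKM in knockout and from 7.56 to 15.9 FPKM in wild type. Ikbkap, which encodes a subunit of the Elongator complex rather than a kinase of the pathway, averaged 3.95 ± 1.01 FPKM in knockout and 3.76 ± 0.118 FPKM in wild type (SD, n = 3 each).

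Over the whole set, 44 of the 64 members tested had a negative difference, or 68.8%, beside 52.1% of all genes, and the median was -0.12 beside -0.01 over all genes. Without knockout library 3 the members with a negative difference numbered 37 and the median was -0.03, beside -0.01 over all genes. Knockout library 3 lay below the other 5 libraries for 31 members, or 48.4%, beside 30.3% of all genes, and above them for 10 members, or 15.6%, beside 29.8% of all genes. The members' median deviation from the wild type mean was -0.23 in this library, against -0.04 and -0.00 in the other knockout libraries and -0.10 to 0.16 among the wild type libraries. These shares and medians are descriptions and carry no test, and the part of the injured-tubule and neutrophil markers, which were also lowest in this library, was not tested.

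**Figure D5:**
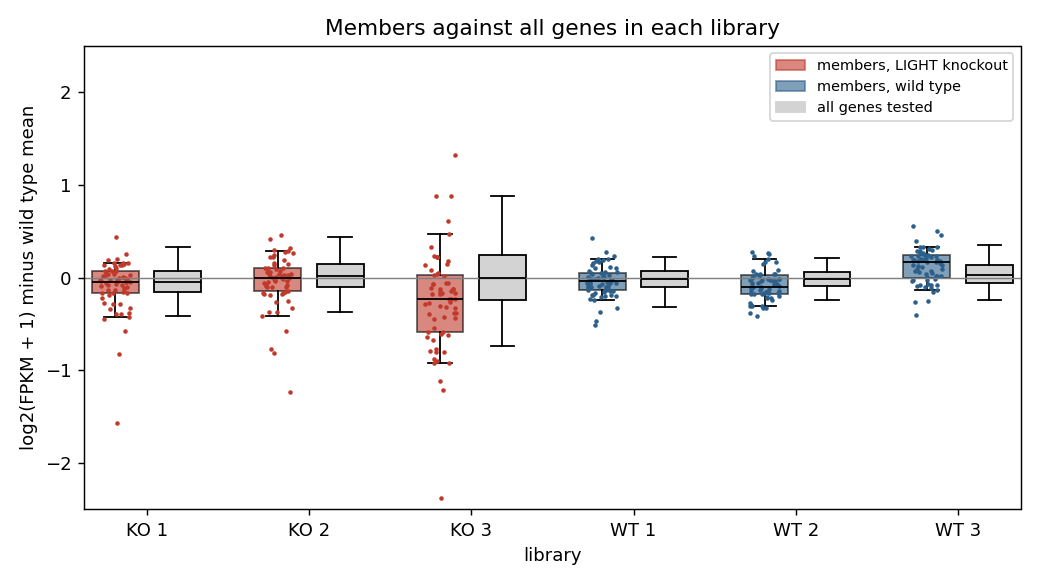
Distribution of log2(FPKM + 1) minus the wild type mean in each library, for the 64 members tested (coloured, with a point per gene) and for all 12836 genes (grey); boxes span the quartiles and whiskers the 5th to 95th percentiles. The members' median lies at -0.23 in knockout library 3 and at 0.16 in wild type library 3, while the median over all genes lies between -0.04 and 0.03 in each library.

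Of the members, 7 lie within 25 Mb of Tnfsf14 on chromosome 17. This distance was chosen here, and the extent of any region linked to the targeted gene is not known. None of these 7, which are Birc6, Ltb, Nfkbie, Nfkbil1, Tnfaip8l1, Tnfrsf21 and Tnfsf9, had an unadjusted p under 0.05. The share was 11.6% of the 354 genes tested in that region and 8.08% of all genes. Nkiras2, Map3k7, Ikbkg, Tnfrsf23 and Traf4 are on other chromosomes. The part of linked sequence in these values was not tested.

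Genes of the pathway outside the set were read from 7 lists, and none of their genes was called. Of the 27 tested partners that act by ubiquitin or kinase activity in NF-kB activation, 14 were higher and 13 lower, with a median of 0.00 beside -0.01 over all genes. Otulin, which removes linear ubiquitin chains, stood at 17.5, 16.0 and 14.8 FPKM in the knockout libraries, against 19.7, 19.6 and 20.8 FPKM in the wild type libraries (limma adjusted p = 0.592), with no overlap. Itch, a ubiquitin ligase that works with A20, stood at 13.3 to 16.7 FPKM in knockout and 10.8 to 12.8 FPKM in wild type (limma adjusted p = 0.595). Among 12 death and survival partners, 6 were higher and 6 lower, with a median of -0.05 and of 0.03 without knockout library 3. Mlkl, which executes necroptosis, stood at 4.37, 3.42 and 2.46 FPKM in the knockout libraries, against 4.71, 4.38 and 4.48 FPKM in the wild type libraries (limma adjusted p = 0.598). Cflar, which restrains caspase 8, stood at 15.5, 16.1 and 15.8 FPKM in the knockout libraries, against 13.9, 15.2 and 13.99 FPKM in the wild type libraries (limma adjusted p = 0.640).

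Of 30 canonical target genes of NF-kB tested, 14 were higher and 16 lower, with a median of -0.06, and the median was 0.15 without knockout library 3. Of the 30, 3 or 10% had an unadjusted p under 0.05, beside 8.08% of all genes in either direction and 4.34% of all genes that were higher. In all, 6 or 20.0% did not overlap between genotypes, beside 16.6% of all genes. By direction, 5 of the 30 were higher and 1 lower without overlap, beside 7.76% and 8.8% of all genes. These counts are small and carry no test. The 3 with an unadjusted p under 0.05 were chemokines with the knockout on the higher side, while the chemokines Ccl2, Cxcl1, Cxcl2 and Cxcl5 of the same list overlapped. Ccl5, which attracts T cells, stood at 2.55, 3.76 and 2.69 FPKM in the knockout libraries, against 1.58, 0.749 and 1.11 FPKM in the wild type libraries (limma adjusted p = 0.506). Cxcl10, which is also driven by interferon, stood at 5.48, 9.08 and 8.70 FPKM in the knockout libraries, against 2.82, 3.06 and 4.75 FPKM in the wild type libraries (limma adjusted p = 0.592). Ccl20, the ligand of the receptor CCR6, stood at 3.15, 7.68 and 1.53 FPKM in the knockout libraries, against 1.52, 0.237 and 0.617 FPKM in the wild type libraries (limma adjusted p = 0.592). For Ccl20 the genotypes were apart by a very small margin. The markers of T and NK cells, 2 of 11 in the table, summed to 0.501 to 1.89 FPKM in knockout and 0.0840 to 0.213 FPKM in wild type. They were Cd3g, with means of 0.501 FPKM in knockout and 0.0596 in wild type, and Nkg7, with 0.638 and 0.108. Both were in the table only through the knockout mean and were too low to be tested. Their higher knockout sum was thus fixed by the lower limit of the table. Markers of B and plasma cells, 3 of 8 in the table, summed to 8.57 to 9.75 FPKM in knockout and 1.06 to 2.25 FPKM in wild type. Most of that sum in the knockout was Jchain, a gene of antibody-secreting cells. Jchain stood at 7.16 to 8.22 FPKM in knockout and 0.284 to 0.884 FPKM in wild type and was called (limma adjusted p = 0.0110). Cd79b overlapped between genotypes and was also in the table only through its knockout mean (0.62 against 0.28 FPKM). The other markers of both lists were not analysed here, and the part of these cells in the chemokine levels was not tested.

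Of 17 genes of the interleukin 1 and Toll-like receptor input, 5 were higher and 12 lower, with a median of -0.14 and of -0.01 without knockout library 3. Irak2, a kinase-like adaptor of these receptors, stood at 4.77, 3.68 and 7.60 FPKM in the knockout libraries, against 9.46, 8.77 and 7.11 FPKM in the wild type libraries (limma adjusted p = 0.592). Sigirr, which dampens these receptors, stood at 14.8, 16.5 and 18.3 FPKM in the knockout libraries, against 15.2, 12.2 and 11.9 FPKM in the wild type libraries (limma adjusted p = 0.592). Of 13 genes of the MAP kinase branch, 5 were higher and 8 lower, with a median of -0.07 and of 0.04 without knockout library 3. Among superfamily members with other names, Fas and Eda2r were tested, and Fas, a death receptor, stood at 5.73 to 7.48 FPKM in knockout and 5.02 to 6.73 FPKM in wild type. Of the targets of the non-canonical route, Cxcl12 and Ccl21a were tested and both had wide overlap between genotypes. Their median was 0.24 with all libraries and -0.13 without knockout library 3.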

How the data were processed

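The authors deposited FPKM for each gene. The submitters' processing notes name FastQC, HISAT2 and StringTie without versions, and mm10 as genome build. Libraries were made from TRIzol-extracted total RNA with a stranded kit, per the labels' protocols. The 6 single-library files were identical to the table used. FPKM hold no read counts, so depth is unknown and no counting interval was computed.

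A filter at a mean of 0.5 FPKM removed 190 genes and kept 12836. Then log2(FPKM + 1) was modelled by genotype in limma 3.58.1 (R 4.3.3), using a trended empirical Bayes prior, two-sided p-values and Benjamini-Hochberg adjustment over the genes kept. Data were simulated with 12836 genes in 5 runs, with noise drawn independently for each gene. In each run 200 genes above a minimum level were changed, with folds on the FPKM + 1 scale. There the calls took in 65.9% of 2-fold changes and 92.6% of 4-fold changes, and 4.70% of the calls were false. The real data gave 15 calls and held an outlying library, so these shares do not give the power of the real comparison.

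The members, gene lists and the rule for named genes were chosen with earlier results of these data known. The rule took members with a call or an unadjusted p under 0.05, non-overlapping members with a log2 difference of at least 0.3, the 3 most abundant of each role, fixed members of the pathway, and up to 4 genes of each list. Other members are given as ranges or were named after their values were seen. Positions, overlaps and 31-base words are from GENCODE M21, where 13005 identifiers were matched. Promoter windows are from RefSeq.

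Alternatives were other pseudocounts, filters, scalings and variance models, weights per library, a block by replicate number, and each library left out.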

Additional observations from a re-analysis of the deposited data

How the results depend on the processing

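Of the 17 alternatives, 9 called Nkiras2 and none called another member. The count of members called lower was 0, in place of 1, after rescaling to a common sum (log2 difference -1.51), with a replicate block and without each library in turn (range 0 to 0). Same-numbered libraries did not deviate together (correlations 0.146, -0.133 and -0.0193), so the block pairs libraries that share only a number. With the replicate block the Nkiras2 difference was -1.34 (limma adjusted p = 0.175), and 0 genes were called higher and 0 lower, in place of 3 and 12. Leaving out 1 library gave 0 to 4 genes called higher and 0 to 7 lower, and Nkiras2 at -1.42 to -1.22.

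Library weights, which gave knockout library 2 a weight of 4.49 and knockout library 3 a weight of 0.246, called 29 genes higher and 23 lower and moved the members' median to 0.0228, in place of -0.12. Under them 27 of the 64 members were lower, in place of 44, and among the 30 named members 9 that had not passed turned sign: Map3k14 (0.0212), Nfkb1 (0.0825), Nfkb2 (0.20), Nfkbia (0.0779), Nfkbib (0.0068), Rela (0.0768), Relb (0.23), Tnfrsf1a (0.0044) and Tnfsf12 (0.054). The cause was not tested. Leaving out 1 library turned the sign of 11 named members that had not passed, 7 of them also listed above, with ranges of -0.22 to 0.0395 for Ltbr, -0.17 to 0.0733 for Nfkb1, -0.36 to 0.11 for Nfkb2, -0.16 to 0.058 for Nfkbia, -0.17 to 0.43 for Nfkbiz, -0.28 to 0.11 for Rela, -0.33 to 0.13 for Relb, -0.21 to 0.28 for Tnfaip2, -0.45 to 0.0187 for Tnfrsf1a, -0.10 to 0.75 for Tnfsf10 and -0.26 to 0.0441 for Tnfsf12. Of the 30, 17 kept their direction under every alternative run. Members under 1 FPKM lie near the lower limit of the table, where the scale compresses differences, and read depth is unknown.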

Other observations

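The 12 tested members with a match to the NF-kB consensus in a promoter window had a median log2 difference, LIGHT knockout minus wild type, of -0.167, and the 36 with a window and no match had a median of -0.175. Without knockout library 3 the medians were -0.0752 and -0.0544. Over all tested genes with a window, the median was -0.02 for the 617 with a match and -0.01 for the 9161 without. No test was made between these sets.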
